A study of Mus musculus with 6 samples.

Results

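Ccl17, Ccl22 and Ccl24 encode small secreted CC chemokines, and their transcripts were followed here in tumour-associated macrophages, that is, macrophages taken out of a tumour. The 3 genes were picked by symbol from the 19938 genes that the array measured, each through its brightest probe set among those annotated to exactly 1 gene, and each had 1 such probe set. They were picked with the difference between the groups already known, so their values are given as a description and no test is attached to them.

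The macrophages came from C57BL/6 mice with hepa1-6 tumours, a mouse hepatoma line, implanted orthotopically in the liver. Cells were isolated by flow sorting and profiled on 6 Affymetrix Mouse Gene 1.0 ST arrays. Vehicle-treated mice supplied 3 of them, and mice treated with PLX3397, which blocks the receptor kinases CSF1R, KIT and FLT3, supplied the other 3. No dose, duration, age or sorting gate is given in the labels, the tumour cells and the strain are shared by both groups, and the replicates are called biological without a statement that each is 1 animal, so a p-value reflects the spread among these samples, which may be technical. The description field of each array carries a second name that goes against the other labels, of macrophages given LPS and interferon-gamma for the vehicle arrays and of macrophages given IL4 for the PLX3397 arrays. Titles, sources and treatment labels were used for grouping, and which set of names is right was not tested.

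CCL17 and CCL22 are the ligands of the receptor CCR4, which is carried by Th2 cells, regulatory T cells and skin-homing T cells, and CCL22 is the stronger of the pair in driving the receptor into the cell. CCL24, also called eotaxin-2, does not act through CCR4 but through CCR3, the receptor of eosinophils and basophils. Macrophages can make all 3, and dendritic cells are a main source of CCL17 and CCL22. IL4 and IL13, through the transcription factor STAT6, are known inducers of each of them in macrophages, and GM-CSF is known to induce Ccl17 through the transcription factor IRF4. In tumours, CCL17 and CCL22 are known for drawing in regulatory T cells.

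Ccl22 and Ccl17 lie on mouse chromosome 8 with a single other protein-coding gene, Cx3cl1, between them in the RefSeq gene table of GRCm38.p6, and Ccl24 lies on chromosome 5. The 250 bases before the transcript start are shown for Ccl17 and Ccl22, because both genes were far higher on the PLX3397 arrays. Both windows are on the plus strand of GRCm38.p6 and come from RefSeq, chr8:94810203-94810452 for Ccl17 and chr8:94745434-94745683 for Ccl22. The Ccl17 window precedes a start inside the gene record, not its outermost start. Capitals mark matches to the motifs searched.
Ccl17: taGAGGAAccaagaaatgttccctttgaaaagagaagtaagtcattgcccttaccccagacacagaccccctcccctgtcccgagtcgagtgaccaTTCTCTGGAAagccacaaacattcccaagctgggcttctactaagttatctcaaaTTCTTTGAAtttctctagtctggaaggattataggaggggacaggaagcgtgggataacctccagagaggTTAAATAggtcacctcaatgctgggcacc
Ccl22: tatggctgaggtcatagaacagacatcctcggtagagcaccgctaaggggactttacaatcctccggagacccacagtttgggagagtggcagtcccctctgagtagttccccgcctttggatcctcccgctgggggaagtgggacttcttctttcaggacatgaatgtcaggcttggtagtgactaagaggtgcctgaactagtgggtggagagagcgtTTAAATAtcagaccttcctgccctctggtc

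Both strands were searched, and no 2 matches overlapped. The Ccl17 window held 1 match to TTCNNNNGAA, the spacing that STAT6 prefers, 154 to 145 bases before the start, a motif present in 5.85% of 32851 mouse promoter windows of that length. It also held 1 match to TTCNNNGAA, the shorter STAT spacing, 99 to 91 bases before the start (7.02% of windows), and 1 to GAGGAA, a core of the myeloid factor PU.1, 248 to 243 bases before it (23.3% of windows). The Ccl22 window held no match to these 3. Both windows held TTAAATA, 29 to 23 bases before the start in Ccl17 and 30 to 24 in Ccl22 (4.18% of windows), a motif added after the sequences had been read. Neither held GAAANNGAAA (2.98% of windows), TGANTCA (6.75%) or the NF-kB motif (3.90%). A match describes letters and is not evidence of binding.

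Ccl17 went from a low level to a very high one. Its log2 expression was 4.83, 4.30 and 4.64 on vehicle replicates 1, 2 and 3, and 11.90, 11.73 and 11.71 on PLX3397 replicates 1, 2 and 3. The PLX3397 arrays lay close together, and the groups were far apart, with a gap of 6.88 between the closest arrays. The means were 4.59 ± 0.27 and 11.78 ± 0.10 (SD, n = 3 each), a difference of 7.19, which is 146-fold on the linear scale. Of all genes, 1 had a larger difference. The vehicle arrays were 1.06 above the background level on average. That level was set array by array at the 95th percentile of 1190 odorant and pheromone receptor genes, which macrophages are not known for, and ran from 3.52 to 3.58.

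Ccl22 showed the same direction with more spread among treated arrays. Vehicle replicates 1, 2 and 3 read 4.46, 4.70 and 4.83, and PLX3397 replicates 1, 2 and 3 read 10.54, 9.57 and 10.09. The range over the PLX3397 arrays was 0.97, against 0.19 for Ccl17, and replicate 2 was the low one. The means were 4.66 ± 0.19 and 10.07 ± 0.49 (SD, n = 3 each), a difference of 5.40, or 42.3-fold, which 11 genes exceeded.

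Ccl24, the CCR3 ligand, was low in both groups. Its values were 4.31, 3.77 and 4.37 on the vehicle arrays and 5.23, 5.09 and 4.79 on the PLX3397 arrays, all above background. The groups did not overlap, as in 49.3% of all genes, although the gap between the closest arrays was 0.42, less than the range of 0.60 within the vehicle group. The means were 4.15 ± 0.33 and 5.04 ± 0.22 (SD, n = 3 each), a difference of 0.89, or 1.85-fold, which 796 genes (3.99%) exceeded. Without overlap, higher on PLX3397 arrays, were 3 of the 3 chemokine genes and 27.4% of all genes, and since the genes were chosen on this contrast nothing is read from that count.

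**Figure D1:**
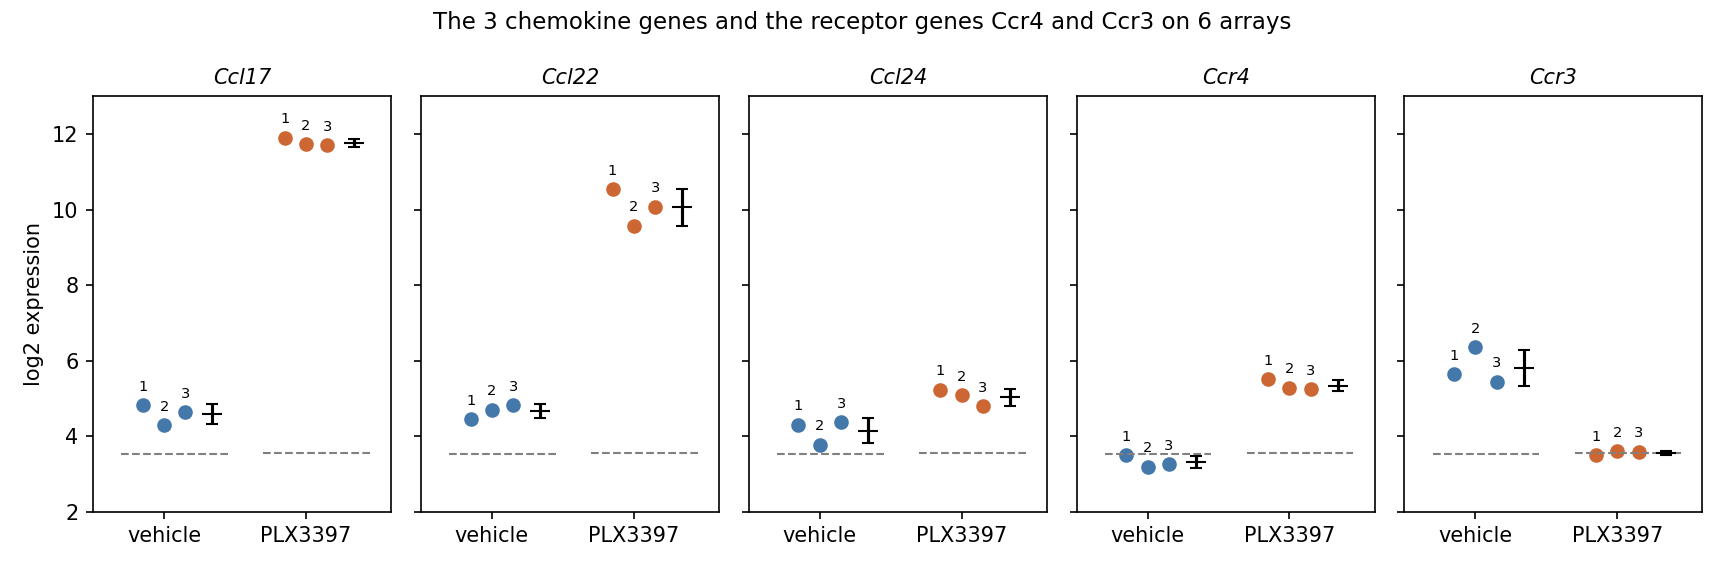
Log2 expression of Ccl17, Ccl22, Ccl24 and of the receptor genes Ccr4 and Ccr3 on each array (points, numbered by replicate), with group mean ± SD beside them and the mean background level of each group as a dashed line. Ccl17 and Ccl22 lie near 4.59 and 4.66 in vehicle and near 11.78 and 10.07 with PLX3397, while Ccl24 moves by 0.89, Ccr4 leaves the background and Ccr3 drops to it.

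The receptors of these ligands went opposite ways in the sorted cells. Other genes were tested with limma, with Benjamini-Hochberg adjustment over all 19938 genes and a threshold of 0.05, and "rose" and "fell" stand for genes past it. Ccr4, the receptor of CCL17 and CCL22, was below background on each vehicle array (3.50, 3.20 and 3.26) and read 5.51, 5.28 and 5.24 on the PLX3397 arrays. Taken against the background level, it was higher with PLX3397 by at least 3.53-fold (adjusted p = 3.31e-07). Ccr3, the receptor of CCL24, read 5.64, 6.36 and 5.45 in vehicle and 3.50, 3.61 and 3.60 with PLX3397, where 2 of 3 arrays were above background. It fell by 2.25 (SE 0.19, adjusted p = 8.29e-06). In bulk RNA, fewer cells of a type and less transcript per cell cannot be told apart.

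Of 12 receptors, scavengers and alternative ligands of this axis 4 rose and 2 fell, beside 37.8% of all genes called (19.6% higher, 18.3% lower), with a median difference of 0.13 against 0.04 over all genes. Besides Ccr4, the rises were those of Ccl7, a monocyte chemokine that also binds CCR3 (1.36, SE 0.14, adjusted p = 2.90e-05), Ccl8 and Ccr8. Ccl8 was below background on the vehicle arrays and above it on 2 of 3 PLX3397 arrays, at least 1.05-fold higher against the background level (adjusted p = 3.55e-04). Ccr8 was below background on all arrays, so no fold is given (adjusted p = 0.0112, and 10 of 11 alternative fits passed). Besides Ccr3, Ccl5 fell by 0.41 from a high level (11.99 ± 0.07 to 11.58 ± 0.04). Ccl11, another eotaxin, did not pass (4.05 ± 0.05 and 4.29 ± 0.17, adjusted p = 0.092). Neither did Ccl26 (3.15 ± 0.0087 and 3.29 ± 0.18, adjusted p = 0.303), which was below background on all arrays. Ackr2, a decoy receptor that clears CC chemokines, was at 3.86 ± 0.04 and 3.92 ± 0.09 (adjusted p = 0.575).

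Among 16 measured other CC chemokines 8 rose and 1 fell (56.2%, beside 37.8% of all genes), with a median difference of 0.24. The rises include Ccl3 (0.25), which passed in only 6 of 13 alternative fits, and Ccl8, near background as above. Ccl1, Ccl5, Ccl7, Ccl8, Ccl11 and Ccl26 are also in the list before, so the counts of these lists are not independent. Ccl12 and Ccl6 had the largest differences, 3.78 (SE 0.25, adjusted p = 1.56e-06) and 3.58 (SE 0.11, adjusted p = 1.10e-08). Ccl2 and Ccl4, attractants of monocytes and of several leukocyte types, rose by 1.71 and 1.38. Ccl5 was the 1 that fell, and Ccl11 and Ccl20 (0.18, adjusted p = 0.218) had the largest differences among those that did not pass. The differences of Ccl17 and Ccl22, 7.19 and 5.40, exceeded those of all 16, and that of Ccl24, 0.89, lay below those of Ccl12, Ccl6, Ccl2, Ccl4 and Ccl7. The chemokine genes were chosen on this contrast, and few genes on the arrays exceeded Ccl17 or Ccl22. Nothing is read from their rank.

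The IL4 and IL13 signalling genes were counted next. Of 11 measured 6 rose and 0 fell (54.5%, beside 37.8% of all genes; median 0.57). Most had a mean level of at least 4, where 58.8% of genes were called, so nothing is read from this share. Stat6 rose from 8.34 ± 0.03 to 9.06 ± 0.10 (0.72, SE 0.08, adjusted p = 7.18e-05), and Il4ra, the receptor chain shared by IL4 and IL13, from 8.78 ± 0.13 to 9.36 ± 0.05 (0.57, SE 0.09, adjusted p = 5.54e-04). Socs1, a feedback inhibitor of cytokine receptors, rose by 1.52, Il13ra1 by 1.26 and the adaptor gene Irs2 by 0.77. Il13 itself read 3.75, 3.70 and 3.71 in vehicle and 4.88, 5.03 and 5.03 with PLX3397 (1.26, SE 0.08, adjusted p = 1.17e-06). Il4 was below background on all 6 arrays (3.28 ± 0.20 and 3.23 ± 0.18, adjusted p = 0.827). The phosphatase gene Ptpn6 (-0.22, adjusted p = 0.0515) missed the threshold narrowly and passed as lower in 7 of 13 alternative fits (adjusted p 0.00275 to 0.144). With each array centred on its median 2 genes of this list fell. The decoy receptor gene Il13ra2, below background on all arrays, did not pass (adjusted p = 0.173).

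Of 22 other genes that IL4 induces in macrophages 18 rose and 2 fell (90.9%, beside 37.8% of all genes; median 1.36). Arginase 1 (Arg1) rose by 5.57 (SE 0.18), the checkpoint ligand gene Pdcd1lg2 by 5.20 (SE 0.13) and Cish, a target of STAT5 and STAT6, by 4.33 (SE 0.11). Chil3, a chitinase-like protein gene, was below background in vehicle and exceeded that level at least 17.9-fold on the PLX3397 arrays (adjusted p = 2.38e-08). Pparg and Myc fell by 0.66 and 0.41 (adjusted p = 0.0199 and 0.0396), with overlapping groups, and PLX3397 replicate 3 set Pparg's overlap (4.42, 4.50 and 5.27 on the PLX3397 arrays). Of 13 alternative fits Pparg passed in 9 and Myc in 8. Retnla, another classical member, was below background on all arrays (2.61 ± 0.13 and 2.76 ± 0.48, adjusted p = 0.597), and Klf4 was at 4.52 ± 0.04 and 4.66 ± 0.0032 (adjusted p = 0.167). The list moved in these data in an earlier analysis, so it is not independent evidence of its direction. The description field also names the PLX3397 arrays as macrophages given IL4, and which set of names is right was not tested.

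In the GM-CSF, TSLP and IRF4 pathway 12 of 16 rose and 1 fell (81.2%, beside 37.8% of all genes; median 0.71). Most had a mean level of at least 5, where 65.7% of genes were called. The list was chosen with earlier results of these data known, so it is not independent evidence of its direction. The pathway is known to induce Ccl17, and its part in the Ccl17 values was not tested. Irf4 was below background on the vehicle arrays (3.19, 3.32 and 3.30) and read 7.85, 6.97 and 7.27 with PLX3397, at least 14.3-fold higher (adjusted p = 1.03e-07). The transcription factor gene Bhlhe40 rose by 4.05 (SE 0.10), the STAT5 target Socs2 by 3.96 (SE 0.14) and Cish, also in the IL4 list, by 4.33. On the mean of its probe sets Socs2 rose by 2.73. Jak2, the kinase bound to the GM-CSF receptor, fell by 0.77 (SE 0.13, adjusted p = 6.98e-04). The cytokine genes themselves, Csf2 (3.03 ± 0.13 and 2.91 ± 0.06, adjusted p = 0.320) and Tslp (2.54 ± 0.13 and 2.35 ± 0.05, adjusted p = 0.122), were below background on all arrays.

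A list of NF-kB subunits and targets was counted in the same way. NF-kB is also known to drive Ccl22 and Ccl17, and its part in their values was not tested. The description field's name for the vehicle arrays, macrophages given LPS and interferon-gamma, bears on this list too, and was not tested. Of 12 measured subunits and targets 2 rose and 7 fell (75.0%; median -0.35). Cd40 fell by 1.44 (SE 0.11), the subunit gene Rel by 1.05 (SE 0.12) and Birc3 by 0.94 (SE 0.09). The rises were those of the inhibitor gene Nfkbie (1.11, SE 0.10) and of Traf1 (0.34). Rela (0.20, adjusted p = 0.0958) and Bcl3 (-0.20, adjusted p = 0.107) did not pass. Calls were more frequent among brighter genes, with 58.8% called among the 11816 genes of mean log2 level of at least 4, which bears on all these shares. All 12 NF-kB genes had a mean level of at least 5, where 65.7% of 8736 genes were called, nearer to their 75.0%. Among these 8736 genes 2587 were called higher and 3150 lower.

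**Figure D2:**
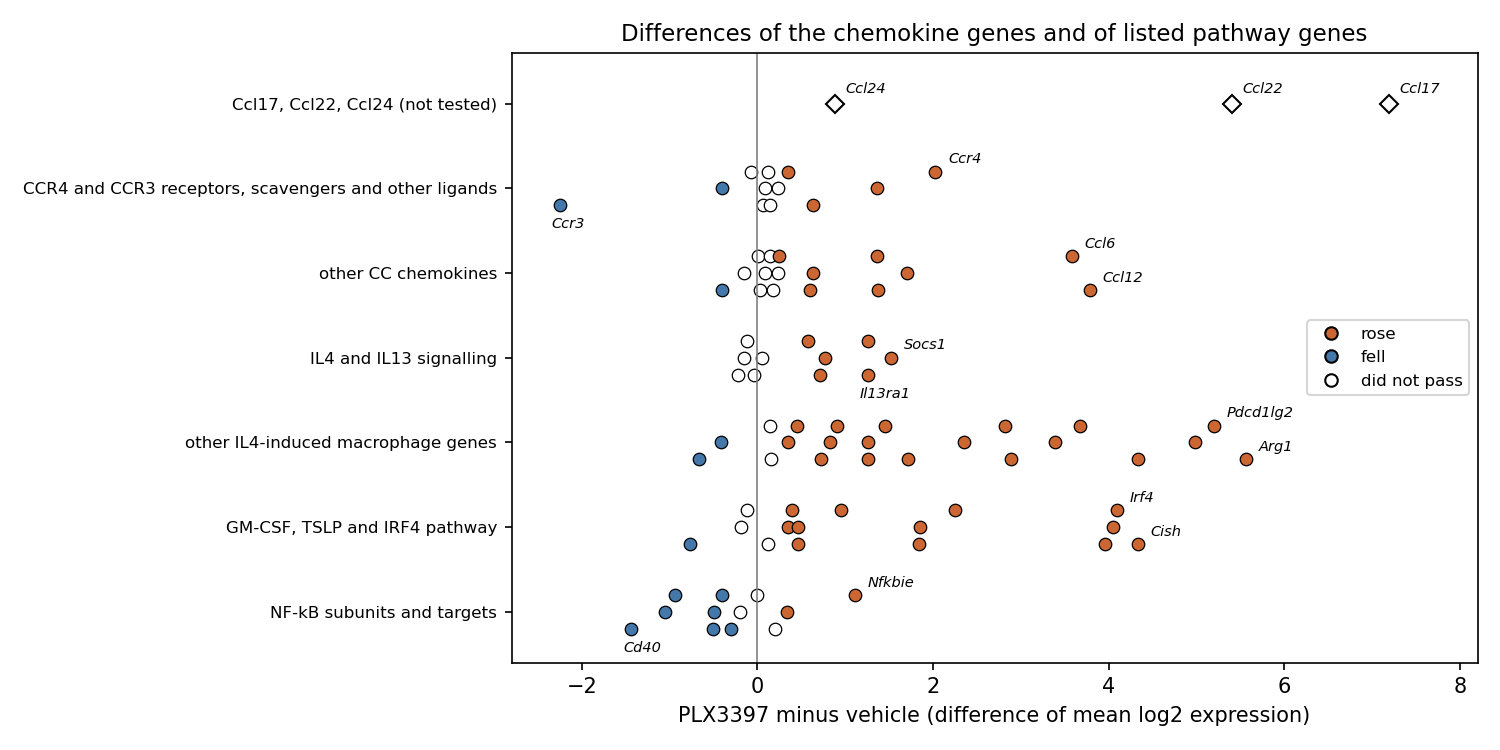
Difference between group means (PLX3397 minus vehicle, log2) for each measured gene of 6 lists, filled where limma's adjusted p was under 0.05 and open where it was not. The 3 chemokine genes stand on top as untested diamonds at 7.19, 5.40 and 0.89, the IL4-induced list reaches 5.57 (Arg1), and 7 of the 9 called NF-kB genes lie left of 0. Fitted differences are drawn also for genes below background in a group, such as Ccl8 and Ccr8.

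Genes flanking Ccl22 and Ccl17 had smaller differences than both, as did nearly all genes, so nothing is read from that ranking. The 5 nearest protein-coding genes on each side of each of the 3 chemokine genes were taken, 11 around Ccl22 and Ccl17 and 10 around Ccl24. Around Ccl22 and Ccl17, 7 of 11 rose and 1 fell (72.7%; median 0.32). Around Ccl24, 4 of the 9 measured rose and 0 fell (44.4%; median 0.14). Of all genes 37.8% were called, and 58.8% of those with a mean level of at least 4, so nothing is read from these counts. With each array centred on its median 9 neighbours were called, in place of 12. Cx3cl1, which lies between Ccl22 and Ccl17 and encodes the membrane-bound chemokine fractalkine, rose from 3.93 ± 0.23 to 5.12 ± 0.06 (1.19, SE 0.11, adjusted p = 1.71e-05). On the same chromosome Arl2bp and Dok4 rose by 0.60 and 0.57, and Rspry1 fell by 0.46. Near Ccl24, the endocytic adaptor gene Hip1 rose by 1.28 (SE 0.10), above the difference of Ccl24 itself (0.89). Ccl26, the gene next to Ccl24, did not pass, as above. Psme3ip1 (0.14, adjusted p = 0.315) did not pass either.

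**Figure D3:**
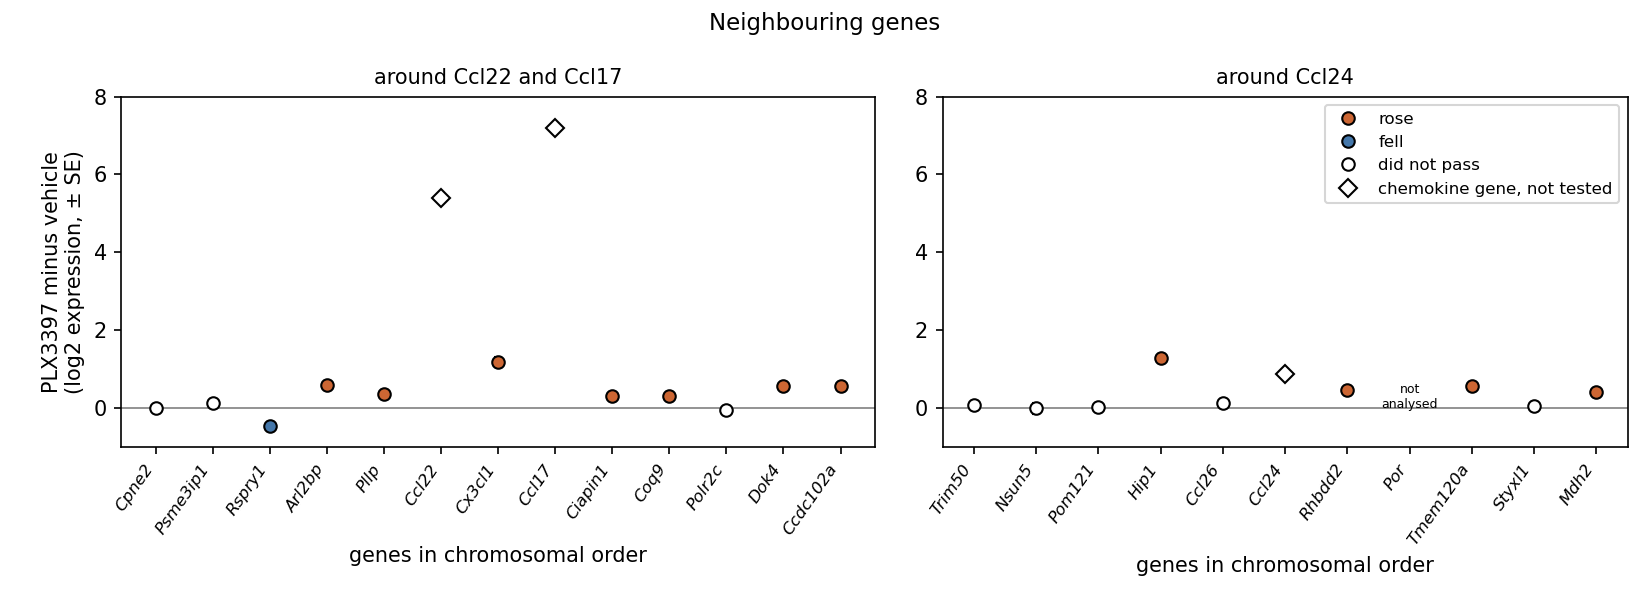
Difference between group means (PLX3397 minus vehicle, log2, bars for the limma SE) of genes in chromosomal order around Ccl22 and Ccl17 and around Ccl24, with equal spacing and not to distance. The 12 called neighbours lie between -0.46 and 1.28, below Ccl22 at 5.40 and Ccl17 at 7.19, as nearly all genes do. Hip1, a neighbour of Ccl24, lies at 1.28, above Ccl24 at 0.89.

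The genes most like each chemokine gene were those with the smallest root mean square difference between log2 profiles over the 6 arrays, each profile centred on its vehicle mean. Centred this way, the measure largely follows the size of the difference, on which the chemokine genes were chosen, so nothing is read from the likeness. For Ccl17 these were the costimulatory receptor gene Tnfrsf9 (0.60), Plet1 (0.85), Dcstamp (0.92), Car4 (0.97) and Trem1 (1.06). Their differences between groups fell in the same order, 6.43, 6.12, 5.92, 5.87 and 5.73. Ccl22 came at place 12 (1.31). For Ccl22 they were the collagenase gene Mmp8 (0.31), Pdcd1lg2 (0.35), the opioid precursor gene Penk (0.39), Car4 (0.39) and Car2 (0.40). For Ccl24 they were Kctd7, the small RNA genes Rny1 and Snord73b, the complement gene C1ra and the kinase gene Pim1, at 0.12 to 0.13. Rny1 read 9.88, 9.31 and 9.73 in vehicle, with its low value on replicate 2 as for Ccl24.

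The spread of Ccl22 over the PLX3397 arrays, highest on replicate 1 and lowest on replicate 2, was shared by few genes of like spread. The order was that of 11.4% of all other genes, and of 8 of the 177 with a range at least as wide (4.52%). These 8, named after their values were seen, were Ccr7, Fscn1, Il12b, Plet1, Cytip, Fkbp11, Rbp4 and Vdr. The 177 include the 37 genes that read over 2 log2 higher on PLX3397 replicate 3 than the mean of replicates 1 and 2. Replicate 3 was highest for these, so they cannot have this order. The low share is therefore not read as particular to Ccl22. Ccr7, the lymph node homing receptor of mature dendritic cells, read 8.21, 6.91 and 7.43 on PLX3397 replicates 1, 2 and 3. Fscn1, which encodes the actin bundler fascin of the same cells, read 7.98, 6.80 and 7.56. Il12b, an interleukin subunit gene that fell by 3.10 between the groups, read 6.52, 5.13 and 5.81. These 3 are in the list of mature dendritic cell markers, of which 5 of 10 measured had this order and 4 were highest on replicate 2 instead. Cd40 and Nudt17, the rest of the 5, ranged over only 0.37 and 0.06. Cd83 read 7.34, 7.39 and 7.06 on PLX3397 replicates 1, 2 and 3, Relb read 6.62, 6.82 and 6.74, and Socs2, highest on replicate 1 but lowest on replicate 3, read 8.22, 7.82 and 7.61. Of the 7 listed genes with a range at least that of Ccl22, 3 had its order, and Ccl12, Clec10a, C1qb and S100a8 did not.

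**Figure D4:**
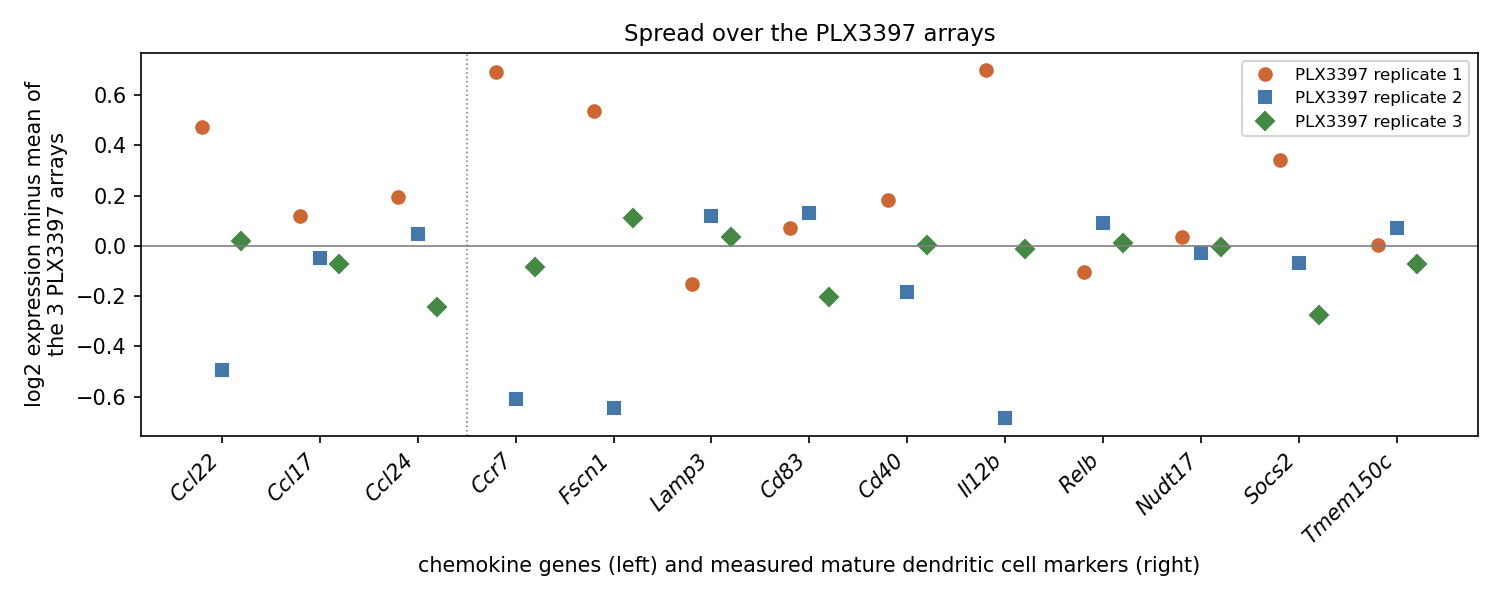
Log2 expression on each PLX3397 array minus the mean of the 3 PLX3397 arrays, for the 3 chemokine genes and the 10 measured mature dendritic cell markers, with a symbol per replicate. Ccl22, Ccr7, Fscn1 and Il12b are high on replicate 1 and low on replicate 2, Cd40 and Nudt17 show that order over a smaller range, the other 5 markers do not show it, and Ccl17 spans 0.19 and Ccl24 0.44.

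Cell type markers were set beside the chemokine values. The share called is to be read against the 37.8% of all genes, or against brighter genes where a list is bright. The 11 measured macrophage markers all had a mean level of at least 5, where 65.7% of genes were called. Most mature dendritic cell markers had a mean level of at least 4, where 58.8% of genes were called. All 11 measured macrophage markers were above background on every array (2 rose and 6 fell, 72.7% called, with mean level 10.18 to 10.24 in vehicle and 9.38 to 9.65 with PLX3397). Adgre1, a surface marker of mouse macrophages, fell from 11.81 ± 0.03 to 11.40 ± 0.10, Csf1r was at 10.96 ± 0.02 and 11.05 ± 0.11 (adjusted p = 0.441), Itgam rose by 0.97, and the 3 complement C1q genes fell, with C1qb at 9.78 ± 0.06 and 7.14 ± 0.52. Of 10 measured mature dendritic cell markers 4 rose and 3 fell (70.0%; mean level 5.44 to 5.60 and 5.88 to 6.29). Socs2, Ccr7 and Fscn1 rose by 3.96, 3.35 and 1.30, Il12b fell by 3.10, Cd40 fell by 1.44, and Lamp3 was below background on all arrays. Of 12 conventional dendritic cell markers 3 rose and 0 fell (25.0%; mean level 3.60 to 3.68 and 3.81 to 3.84). Zbtb46 rose from 4.38 ± 0.07 to 4.77 ± 0.05, Itgae and Cd207 rose near or below background (passing in 7 and 3 of 11 alternative fits), Flt3 was at 3.57 ± 0.03 and 3.83 ± 0.14, and Xcr1 and Clec9a were below background on all arrays. The part of dendritic cells in the Ccl17 and Ccl22 values was not tested.

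Cells that carry the receptors were looked for in the same way. Of 15 T cell markers 6 rose and 0 fell (40.0%, close to the 37.8% of all genes; mean level 3.54 to 3.59 and 4.17 to 4.24). These were Il2ra (3.08), Ccr4, Lat (1.95), Gata3 (0.80), Icos (0.79) and Ccr8. The defining genes Cd3d and Cd3g were below background on all arrays, Cd3e was at 4.13 ± 0.10 and 4.20 ± 0.12 (adjusted p = 0.593), and Foxp3 at 3.91 ± 0.0087 and 3.85 ± 0.08. Of 14 eosinophil, basophil and mast cell markers 3 rose and 1 fell (28.6%; mean level 3.46 to 3.50 and 3.85 to 3.89). Hdc, Gata2 and Siglecf rose by 3.59, 3.22 and 0.44, and Ccr3 fell. The eosinophil peroxidase gene Epx was at 3.47 ± 0.06 and 3.51 ± 0.10, and 8 of the 14 were below background on all arrays. Of 12 neutrophil markers 3 rose and 1 fell (33.3%; mean level 4.88 to 4.98 and 4.97 to 5.09). S100a8 rose by 1.52, Csf3r fell by 1.55, Ly6g and Ltf rose below background (passing in 7 and 6 of 11 alternative fits), and S100a9 was at 4.03 ± 0.36 and 4.36 ± 0.03 (adjusted p = 0.115). Of 10 measured hepatocyte and hepatoma markers 1 rose, the transferrin gene Trf (2.85), which macrophages also express (mean level 4.20 to 4.24 and 4.49 to 4.62). Alb and Ttr were below background on all arrays, and Afp was at 4.07 ± 0.08 and 4.00 ± 0.14.

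PLX3397 replicate 3 stood apart from its group. On it 37 genes exceeded the mean of PLX3397 replicates 1 and 2 by over 2 log2, and no gene did so on any of the other arrays against their own groups. Without it the differences of Ccl17, Ccl22 and Ccl24 were 7.23, 5.39 and 1.01.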

How the data were processed

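The deposited values are log2 expression per probe set, a scale inferred from their range of 1.57 to 13.5. How the authors summarised and normalised them, and on which genome build, is not given in the sources used here. MAS5 appears in the submitters' processing notes without a role. Array medians were 4.21 to 4.35, so values were used as deposited. Without scanner files, no batch was tested.

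Of 28941 probe sets 21789 carried exactly 1 symbol in the platform annotation (1621 several, 5531 unnamed here). All 21698 matched by Entrez identifier kept their symbol, and the brightest probe set per gene left 19938 genes. The group term was fitted in limma 3.58.1 under R 4.3.3 (lmFit, then eBayes, two-sided, Benjamini-Hochberg). A gene on 0 arrays of a group above background has its fold as a bound against the background level or its own value, whichever was higher. With 3 arrays per group their number limits the precision. The fit was tested on simulated data of 19938 genes with this comparison's spread, where it recovered 52.2% of shifts of 0.5 log2, 92.5% of shifts of 1 and 98.5% of shifts of 2. These were 67, 67 and 66 genes, and 6 of 168 calls were false. In the real data 37.8% of genes were called, a far larger share, so the simulated rates need not hold there.

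The members and lists were chosen with earlier results of these data known. Named in each list were Ccr4, Ccr3, Irf4, Stat6 and Il4ra, the 4 largest changes past the threshold without overlap and the 2 largest that missed it, with up to 3 changes and the first 3 genes per marker list, and the 5 genes most like each chemokine gene, predicted genes left out. Other named genes complete a small count or were chosen after their values were seen. Il2rg, Jak3, Nfkb1, Ccl21a, Ccl27a, Il4i1, Cacnb3, H19, Serpina1a and Por were not analysed here, nor was the Ccl24 promoter. Promoters of 2 of the 3 chemokine genes matched RefSeq windows by symbol. Alternatives covered scaling, probe set choice, dim genes, variance, a minimum change, the replicate number as a block and omission of each array. Plots used matplotlib 3.10.9.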

Additional observations from a re-analysis of the deposited data

How the results depend on the processing

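The differences of Ccl17, Ccl22 and Ccl24 kept their direction in each alternative run, at 6.96 to 7.31, 5.17 to 5.65 and 0.70 to 1.01. Leaving out 1 array gave 7.05 to 7.31, 5.17 to 5.65 and 0.70 to 1.01. The difference of Ccl17 moved by more than the replicate SD with quantile normalisation (6.96), and the cause was not tested. The counts of called genes fell by over 1.5 times where a change of at least 1 log2 was also required, which by construction keeps fewer genes. They were then 3 of the CCR4 and CCR3 list, 5 of the other CC chemokines, 3 of the IL4 and IL13 signalling genes, 13 of the other IL4-induced genes, 7 of the GM-CSF, TSLP and IRF4 pathway, 3 of the NF-kB list and 2 of the neighbours. With genes of a mean level of at least 5 alone, which tests fewer genes, 2 of the CCR4 and CCR3 list were called. Without 1 array the counts were 6 to 7, 8 to 9, 6 to 7, 18 to 19, 13 to 14, 8 to 9 and 11 to 12 in the same order. Centring each array on its median moved the median difference of all genes from 0.04 to -0.09 and the share of calls that were higher from 51.7% to 30.6%. Same-numbered arrays deviated together with correlations of -0.013 to 0.008, and differently numbered arrays with correlations of -0.023 to 0.025. No pairing by number was seen, which does not show that the samples were unpaired. With the replicate number as a block, 7154 genes were called in place of 7539, the differences were 7.19, 5.40 and 0.89, and the list counts were 6, 9, 6, 20, 13, 9 and 12, as without it. Levels near the background, such as those of Ccl24, Ccr8, Ccl8 and Il4, limit what small differences show.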
